A study of Mus musculus with 8 samples.

Results

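A set of 10 genes of the integrated stress response around the transcription factor ATF4 was followed in 8 RNA-seq libraries of mouse liver cells. The 10 genes (Atf4, Ddit3, Trib3, Ppp1r15a, Sesn2, Phgdh, Psat1, Asns, Chac1 and Fgf21) were taken by symbol from a given list, by a rule with no threshold on their values, out of 25229 symbols in the tables, and all 10 were present and passed the filter on low counts. Each library counts the RNA of cells released from a collagenase-perfused liver, pelleted at low speed and cleaned on Percoll, a procedure that enriches hepatocytes. All mice were C57BL/6 and Ifih1-/-, so the sensor of double-stranded RNA known as MDA5 was deleted in every group, controls included. All carried Alb-Cre, in which the albumin promoter drives Cre recombinase in hepatocytes, so that other liver cells keep their floxed alleles. The groups were Adar1wt/wt (3 libraries), Adar1wt/flox (2 libraries) and Adar1flox/flox (3 libraries), called wt/wt, wt/flox and flox/flox here. Replicates 1, 2 and 3 were labelled 11, 9 and 7 weeks old in each group that has them, so replicate number and labelled age are one variable. Adar1, symbol Adar, encodes an enzyme that converts adenosine to inosine in double-stranded RNA.

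In the integrated stress response, kinases that sense double-stranded RNA, amino acid shortage, unfolded proteins or heme shortage phosphorylate the initiation factor eIF2. General translation then falls while the Atf4 mRNA, through upstream reading frames, is translated more, so ATF4 protein can rise without a change in its mRNA. ATF4 binds C/EBP-ATF composite elements, often with a C/EBP partner, and drives genes of amino acid supply, redox balance and feedback, among them the other genes followed here. In liver the pathway is known for its response to protein restriction and for secretion of the hormone FGF21.

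A common form of the composite element is TGATGNAA, and these letters were searched on both strands of RefSeq promoter windows (GRCm38.p6, from 250 bases before to 50 bases after the start of the gene). They occurred in 4 of the 10 genes (4 of their 11 windows) and in 1304 of 32851 windows over the genome (3.97%). The windows of these 4 genes are shown because they hold letters of the kind that ATF4 is known to bind. Each is printed 5′ to 3′ on the strand of its gene, with the matching letters in capitals. The first 3 are the 250 bases before the start, and for Trib3 only the surroundings of the match are given.
Chac1, chr2:119350992-119351241, plus strand: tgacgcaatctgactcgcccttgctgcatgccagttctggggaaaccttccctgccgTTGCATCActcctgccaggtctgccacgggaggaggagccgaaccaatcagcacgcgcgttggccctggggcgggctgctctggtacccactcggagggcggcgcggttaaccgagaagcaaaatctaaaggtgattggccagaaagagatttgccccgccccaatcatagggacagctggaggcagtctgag
Fgf21, chr7:45615491-45615740, minus strand: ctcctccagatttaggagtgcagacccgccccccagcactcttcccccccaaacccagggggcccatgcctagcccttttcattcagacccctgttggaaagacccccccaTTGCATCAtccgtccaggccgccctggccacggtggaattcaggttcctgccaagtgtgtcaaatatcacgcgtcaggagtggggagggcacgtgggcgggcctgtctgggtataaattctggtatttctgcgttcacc
Asns, chr6:7693210-7693459, minus strand: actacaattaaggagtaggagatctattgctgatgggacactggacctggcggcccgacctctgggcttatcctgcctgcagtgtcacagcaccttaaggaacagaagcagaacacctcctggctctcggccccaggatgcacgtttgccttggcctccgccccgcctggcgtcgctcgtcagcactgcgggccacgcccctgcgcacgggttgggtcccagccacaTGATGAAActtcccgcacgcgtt
Trib3, chr2:152344029-152344056, minus strand: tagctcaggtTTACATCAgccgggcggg
In Chac1 and Fgf21 the letters read TGATGCAA on the strand opposite to the gene, 193 and 139 bases before the start. In Asns they read TGATGAAA on the strand of the gene, 23 bases before the start. In Trib3 they read TGATGTAA on the opposite strand, 15 bases after the RefSeq start. A match is a description of the letters, and binding was not measured. In the windows of the other 6 genes these letters were not found, which says nothing about other forms of the element or about sites outside the window.

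The libraries held 75875711 to 132303735 sense reads assigned to genes. The labels tell the replicates apart by number and age and say nothing of litters. A batch tag in the table names separates wt/wt from the wt/flox and flox/flox libraries, which share a second tag, so genotype and tag cannot be told apart in any comparison with wt/wt. Reads with no unique position ran from 8.97% to 10.9% for wt/wt, against 3.92% to 4.98% elsewhere, and their part in the results was not tested. By Xist and Y-linked reads, flox/flox 1 (labelled female) and flox/flox 2 (labelled male) contradict their sex labels, while 6 of 8 libraries match. The design text counts 2 flox/flox livers and 3 libraries bear that genotype. Reads of Ifih1 numbered 0 to 4 in every library. Adar stood at 28.1, 30.0 and 53.6 CPM (reads of a gene relative to the TMM-scaled size of its library) in wt/wt, 22.0 and 31.8 CPM in wt/flox, and 49.4, 35.9 and 42.0 CPM in flox/flox. The groups overlap, and a count over the whole gene does not resolve which exons were removed. Reads that the sense count assigned to no gene were 22.2% to 28.1% of the uniquely placed reads in each wt/wt library. They were 31.6% to 40.01% in each library with a floxed allele. This tally does not separate reads between genes from other reads without a sense gene, and its part was not tested either. Hepatocyte markers summed to 111400 to 130300 CPM in wt/wt and to 167400 to 254900 CPM in the libraries with a floxed allele. Against wt/wt, 3 of 13 were called as rises in flox/flox and 4 of 13 in wt/flox, where 15.1% and 6.58% of all genes rose. Alb made up most of each sum, at 63580 to 79940 CPM in wt/wt and 86640 to 171700 CPM elsewhere. It was not among the called genes, so the sums do not stand for each marker. Sinusoidal endothelial markers summed to 221 to 351 CPM in wt/wt, 109 to 123 CPM in wt/flox and 96.4 to 201 CPM in flox/flox. Against wt/wt, 9 of 14 fell in flox/flox and 8 of 14 in wt/flox, where 14.7% and 5.89% of all genes fell. Kupffer cell markers summed to 64.35, 63.6 and 272 CPM in wt/wt, 35.7 to 37.1 CPM in wt/flox and 35.5 to 125 CPM in flox/flox. Of these markers 0 of 13 were called in either comparison with wt/wt, and wt/wt and flox/flox overlap. For any of these cell types, fewer cells cannot be told apart from less RNA per cell. Every comparison with wt/wt carries the endothelial difference in marker RNA. For hepatocyte markers it carries the rises of the called genes, Apob, Cps1 and Cyp2e1 in both comparisons and Fgb in wt/flox. The part of these differences in the results was not tested.

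None of the 10 genes passed the test in any comparison, by edgeR's quasi-likelihood test with Benjamini-Hochberg adjustment over the 14728 genes tested, at an adjusted p under 0.05. For flox/flox against wt/wt the count was 0 of 10 genes, where 29.9% of all genes were called. For wt/flox against wt/wt it was 0 of 10, where 12.5% of all genes were called. Within one batch tag, for flox/flox against wt/flox, it was 0 of 10, where 0% of all genes were called. At an unadjusted p under 0.05 the numbers were 0, 2 (Atf4 and Ddit3) and 1 (Ddit3) of the 10 genes in that order, beside 42.5%, 31.7% and 8.42% of all genes. DESeq2 called 1 of the 10 (Atf4) in wt/flox against wt/wt, beside 3295 of all 14728 genes. It called none of the 10 in flox/flox against wt/wt or against wt/flox, beside 5229 and 73 of all genes. Limma-voom called none of the 10, beside 4463 genes in flox/flox against wt/wt, 1648 in wt/flox against wt/wt and 0 in flox/flox against wt/flox. The fitted log2 fold changes lay below 0 for 8 of 10 genes in flox/flox against wt/wt (median -0.28, against 0.02 over all genes). They lay below 0 for 8 of 10 in wt/flox against wt/wt (median -0.77, against -0.06), and above 0 for 8 of 10 in flox/flox against wt/flox (median 0.72, against 0.04). These comparisons share libraries, so their medians are not independent of each other. None of the 10 genes had all flox/flox libraries on one side of all wt/wt libraries, an arrangement that 45% of the genes tested show.

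**Figure D1:**
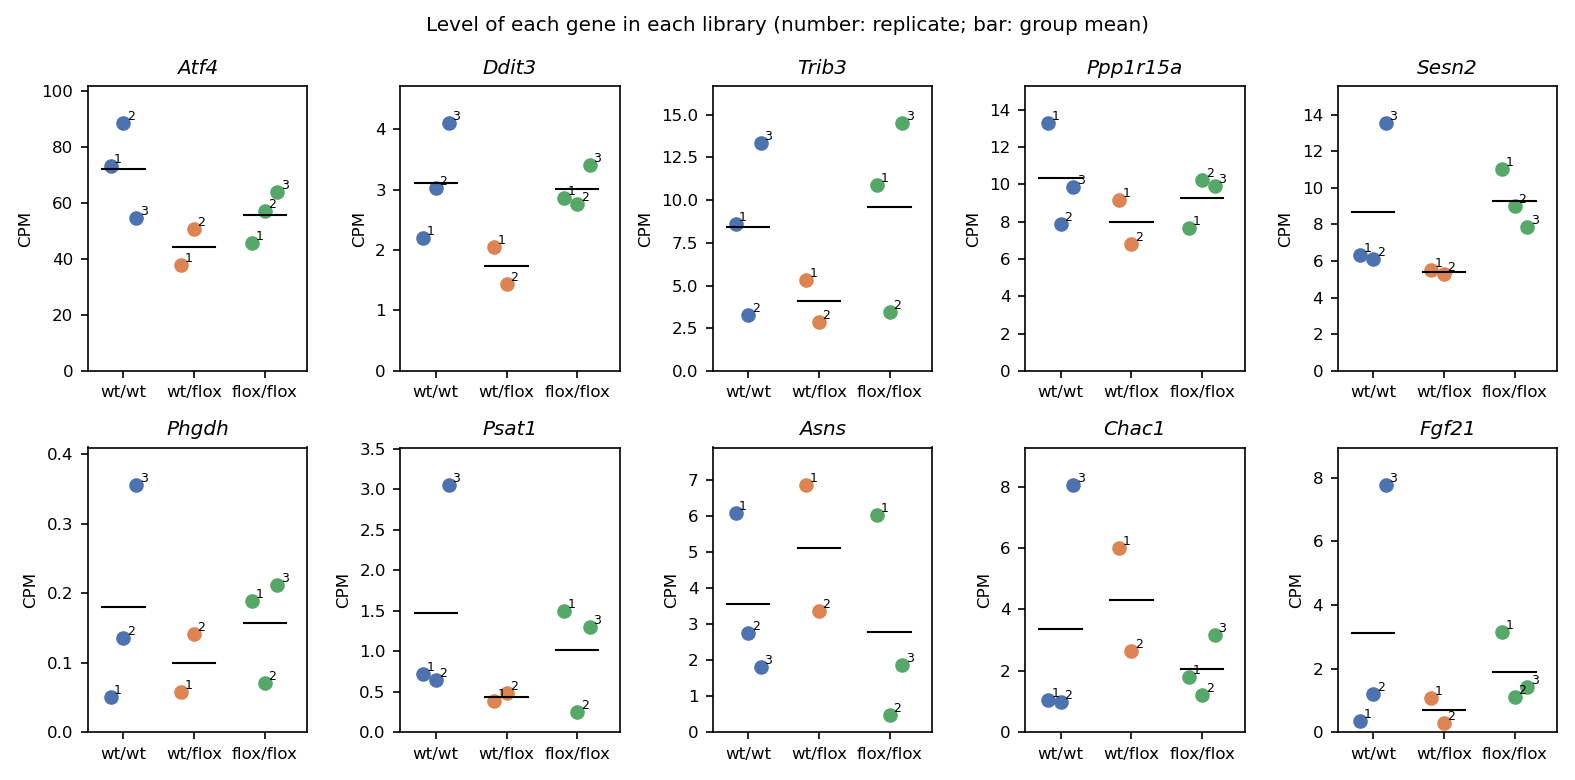
CPM of each of the 10 genes (y axis, linear, from 0) in each library, by genotype (x axis); points carry the replicate number and bars are group means (3, 2 and 3 libraries). The flox/flox points overlap the wt/wt points in every panel, and wt/wt replicate 3 is the highest of the 8 libraries in 6 panels.

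Among the transcription factors, Atf4 (chr15:80255184-80257541, plus strand) was the most abundant of the 10 genes per exon length, with a mean of 25.0 RPKM over the 8 libraries. Its level was 73.3, 88.4 and 54.6 CPM in wt/wt, 37.9 and 50.7 CPM in wt/flox, and 45.6, 57.2 and 63.8 CPM in flox/flox. Both wt/flox libraries lay below all wt/wt libraries, while flox/flox overlapped both groups. In wt/flox against wt/wt the log2 fold change was -0.70 ± 0.24 (SE; adjusted p = 0.0921, edgeR). In flox/flox against wt/wt it was -0.38 ± 0.21 (adjusted p = 0.213), with a 95% interval from -0.86 to 0.11. Against wt/flox it was 0.33 ± 0.24 (adjusted p = 0.624). Atf4 kept its sign in each comparison under all 23 alternative settings. It passed the threshold in flox/flox against wt/wt only when scaled by library size alone (-0.70, adjusted p = 0.0489). In wt/flox against wt/wt it passed with that scaling (-1.05, adjusted p = 0.0259) and with DESeq2 (-0.68, adjusted p = 0.0392), over a range of 0.0259 to 0.383 for all settings. Scaling by library size alone moved the median log2 fold change of all genes to -0.31 and -0.42 in these comparisons, and Atf4 stood about as far below that median as before.

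Ddit3 (chr10:127290774-127296288, plus strand) encodes CHOP, a C/EBP family protein that ATF4 induces and that is linked to cell death under long stress. It was measured at 2.19, 3.03 and 4.10 CPM in wt/wt, 2.05 and 1.43 CPM in wt/flox, and 2.85, 2.76 and 3.41 CPM in flox/flox. Both wt/flox libraries lay below every library of the other groups. The log2 fold change was 0.79 ± 0.31 in flox/flox against wt/flox (adjusted p = 0.558, edgeR) and -0.83 ± 0.31 in wt/flox against wt/wt (adjusted p = 0.111). In flox/flox against wt/wt it was -0.05 ± 0.27, with a 95% interval from -0.66 to 0.57. Groups that do not overlap are common in these data: 27.3% of all genes tested show it in flox/flox against wt/flox and 55.1% in wt/flox against wt/wt. Only 54.6% of the reads over Ddit3 were on its own strand, and Mars, on the opposite strand, overlaps its end. With sense and antisense reads added the log2 fold change in flox/flox against wt/wt was 0.01.

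The feedback regulators were spread differently. Trib3 (chr2:152337422-152344032, minus strand) encodes a pseudokinase that is induced by ATF4 and CHOP and restrains them. Its level was 8.63, 3.26 and 13.3 CPM in wt/wt, 5.31 and 2.84 CPM in wt/flox, and 10.9, 3.44 and 14.5 CPM in flox/flox. Within each group the library labelled 9 weeks was the lowest, so the groups overlap throughout. The log2 fold change was 0.19 ± 0.61 in flox/flox against wt/wt (adjusted p = 0.831, edgeR), 1.24 ± 0.72 in flox/flox against wt/flox (adjusted p = 0.576) and -1.04 ± 0.71 in wt/flox against wt/wt (adjusted p = 0.340).

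Ppp1r15a (chr7:45522916-45526268, minus strand) encodes GADD34, which brings a phosphatase to eIF2 and so ends the response. It had the narrowest range of the 10 genes, 1.95-fold from the lowest to the highest library. Its level was 13.3, 7.86 and 9.89 CPM in wt/wt, 9.15 and 6.83 CPM in wt/flox, and 7.66, 10.3 and 9.89 CPM in flox/flox, with all 3 groups overlapping. The 95% interval of its log2 fold change in flox/flox against wt/wt ran from -0.67 to 0.36, which bounds a rise at 1.28-fold and a fall at 1.59-fold. Sesn2 (chr4:132492032-132510501, minus strand) encodes sestrin 2, a leucine-binding inhibitor of mTORC1. It was measured at 6.34, 6.10 and 13.5 CPM in wt/wt, 5.52 and 5.31 CPM in wt/flox, and 11.0, 8.99 and 7.84 CPM in flox/flox. The 3 flox/flox libraries lay above both wt/flox libraries (log2 fold change 0.78 ± 0.36, adjusted p = 0.558, edgeR) and the wt/flox libraries lay below all wt/wt libraries (-0.68 ± 0.35, adjusted p = 0.226). Groups are apart, in either direction, for 27.3% and 55.1% of all genes tested in these comparisons. Against wt/wt the log2 fold change of flox/flox was 0.10 ± 0.31 (adjusted p = 0.826), and without wt/wt replicate 3 it was 0.58 (adjusted p = 0.0495).

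**Figure D2:**
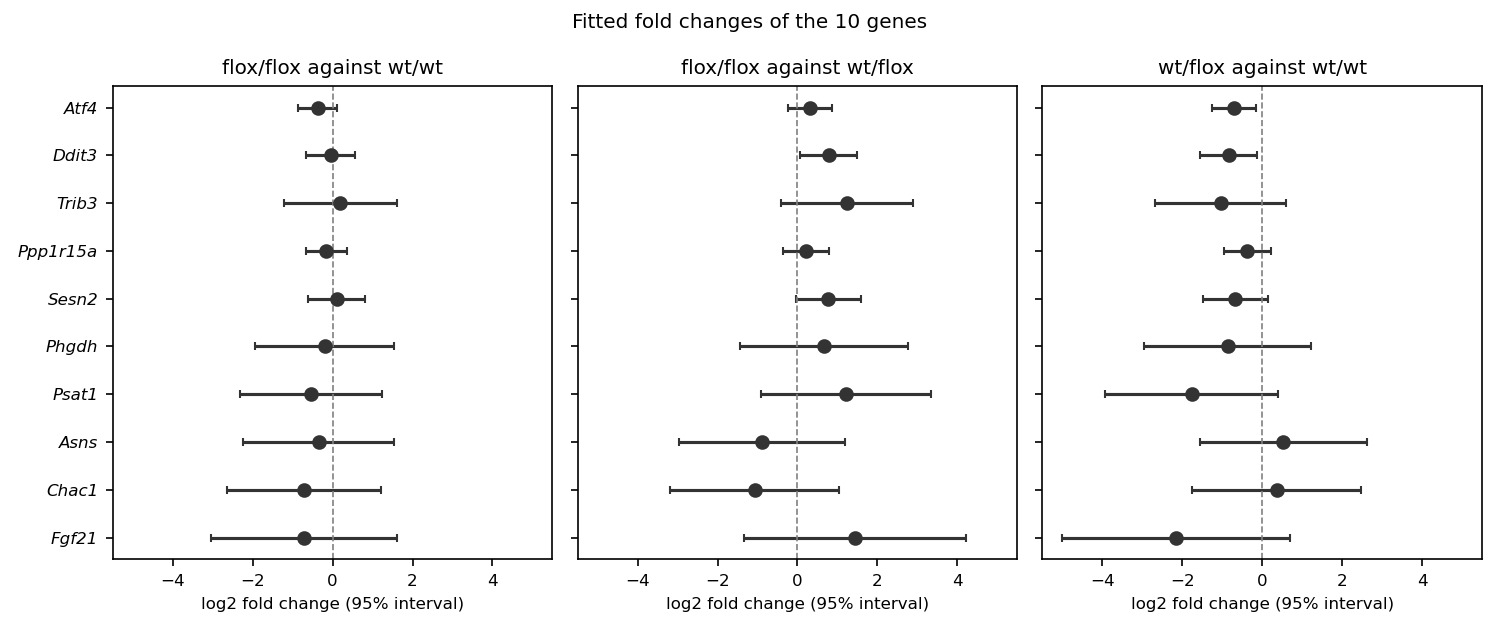
Fitted log2 fold change (x axis) of each of the 10 genes (y axis) in the 3 comparisons; points are edgeR estimates and bars their 95% intervals. In flox/flox against wt/wt every interval includes 0, while those of Ddit3 in flox/flox against wt/flox and of Atf4 and Ddit3 in wt/flox against wt/wt do not, before adjustment over all genes.

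The genes of serine and asparagine synthesis were low in these cells. Phgdh (chr3:98313170-98339990, minus strand), the first enzyme of serine synthesis, had 5 to 39 sense reads per library and the lowest mean level per exon length, 0.061 RPKM. It was measured at 0.051, 0.135 and 0.356 CPM in wt/wt, 0.058 and 0.142 CPM in wt/flox, and 0.189, 0.071 and 0.213 CPM in flox/flox. Only 25.3% of the reads over it were on its own strand. The 95% interval of its log2 fold change in flox/flox against wt/wt ran from -1.94 to 1.53. With antisense reads added, which make up most of the reads over it, its sign turned in each of the 3 comparisons. At so few sense reads no direction can be given for Phgdh.

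Psat1 (chr19:15904678-15947337, minus strand), the aminotransferase of the second step, was measured at 0.721, 0.643 and 3.06 CPM in wt/wt, 0.386 and 0.483 CPM in wt/flox, and 1.5, 0.250 and 1.30 CPM in flox/flox. Both wt/flox libraries lay below all wt/wt libraries, and flox/flox overlapped both groups without reaching wt/wt 3. For wt/flox against wt/wt, 55.1% of all genes tested have groups that do not overlap. Its log2 fold change was -1.76 ± 0.94 in wt/flox against wt/wt (adjusted p = 0.232, edgeR), 1.22 ± 0.92 in flox/flox against wt/flox (adjusted p = 0.635) and -0.54 ± 0.77 in flox/flox against wt/wt (adjusted p = 0.623). With the labelled sex as a term, which 2 flox/flox libraries contradict, the last of these became -1.27 (adjusted p = 0.0174). With the sex read from transcripts it was not called. Without wt/wt replicate 3 the value of wt/flox against wt/wt was -0.65.

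Asns (chr6:7675169-7693254, minus strand) encodes asparagine synthetase, a classic target of amino acid shortage. Its level was 6.10, 2.77 and 1.81 CPM in wt/wt, 6.88 and 3.38 CPM in wt/flox, and 6.03, 0.492 and 1.87 CPM in flox/flox. The library labelled 11 weeks was the highest in each group, at nearly the same level in all 3 genotypes. The log2 fold change was -0.35 ± 0.82 in flox/flox against wt/wt (adjusted p = 0.767, edgeR), -0.88 ± 0.90 in flox/flox against wt/flox (adjusted p = 0.708) and 0.53 ± 0.90 in wt/flox against wt/wt (adjusted p = 0.712).

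Chac1 (chr2:119351229-119354381, plus strand), whose enzyme breaks down glutathione, was measured at 1.06, 0.998 and 8.06 CPM in wt/wt, 6.00 and 2.64 CPM in wt/flox, and 1.79, 1.22 and 3.16 CPM in flox/flox. Its wt/wt mean of 3.37 ± 4.06 CPM (SD, n = 3) rests on replicate 3, with the other replicates near 1 CPM. The log2 fold change in flox/flox against wt/wt was -0.71 ± 0.83 (adjusted p = 0.544, edgeR), and 1.00 without wt/wt replicate 3. Against wt/flox it was -1.07 ± 0.91 (adjusted p = 0.665).

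Fgf21 (chr7:45613886-45615490, minus strand), the secreted hormone of the set, had the widest range, 26.1-fold from the lowest to the highest library. It was measured at 0.365, 1.22 and 7.79 CPM in wt/wt, 1.09 and 0.298 CPM in wt/flox, and 3.14, 1.13 and 1.43 CPM in flox/flox. The 3 flox/flox libraries lay above both wt/flox libraries, by 1.13 CPM against 1.09 CPM at the closest. In that comparison 27.3% of all genes tested have groups that do not overlap. Its log2 fold change was 1.44 ± 1.20 in flox/flox against wt/flox (adjusted p = 0.663, edgeR), -2.16 ± 1.24 in wt/flox against wt/wt (adjusted p = 0.261) and -0.72 ± 1.01 in flox/flox against wt/wt (adjusted p = 0.614). Without wt/wt replicate 3 the last value was 1.25, and that of wt/flox against wt/wt was -0.19. The 95% interval with all libraries allows a rise of up to 3.05-fold or a fall of up to 8.29-fold.

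The 10 genes varied more between libraries of one genotype than most genes of like abundance. Set beside the 200 genes nearest in mean CPM, the within-group SD of log2 levels stood at the 99th percentile for Fgf21, the 98.5th for Trib3 and the 97.5th for Asns and Chac1. It stood at the 57.5th for Ddit3, the lowest of the set. The wt/wt replicate 3, the 7-week liver, was the highest library for 6 of the 10 genes (Ddit3, Sesn2, Phgdh, Psat1, Chac1 and Fgf21), and wt/flox replicate 2 the lowest for 5. Replicate 3 of wt/wt also held the most Kupffer cell marker RNA (272 CPM against at most 125 CPM elsewhere) and neutrophil and monocyte marker RNA (46.4 CPM against at most 15.2 CPM). Its interferon-stimulated genes summed to 1080 CPM, against 256 and 337 CPM in the other wt/wt libraries, 220 and 315 CPM in wt/flox, and 718, 363 and 581 CPM in flox/flox. The part of these cells in the values was not tested. Without this library the log2 fold changes of Ddit3, Phgdh, Psat1, Chac1 and Fgf21 in flox/flox against wt/wt turned from below to above 0 (0.20, 0.73, 0.57, 1.00 and 1.25), none past the threshold. In wt/flox against wt/wt those of Trib3 and Sesn2 became -0.54 and -0.20, and that of Chac1 became 2.07.

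The genes whose pattern lay nearest to the mean of the 10 over the 8 libraries, among 8628 genes of at least 5 CPM, were Sh2b1, Oasl2, Ctss, Ifitm3 and Rnf216. Pearson's r was 0.929, 0.908, 0.905, 0.904 and 0.901 for them. These values are a description over 8 libraries that differ in genotype, labelled age and batch tag. Oasl2 and Ifitm3 are interferon-stimulated and Ctss encodes a protease of macrophages and other antigen-presenting cells. Oasl2 stood at 0.568, 0.693 and 30.8 CPM in wt/wt, 0.468 and 0.483 CPM in wt/flox, and 13.3, 0.786 and 6.13 CPM in flox/flox, so wt/wt 3, flox/flox 1 and flox/flox 3 were the libraries well above 1 CPM. By contrast Sh2b1 moved only between 28.3 and 32.4 CPM.

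Age and sex were examined after the values had been seen. Trib3 averaged 8.28 CPM at 11 weeks, 3.18 CPM at 9 weeks and 13.9 CPM at 7 weeks. The age term, with genotype in the edgeR fit, gave an adjusted p of 0.229, where 0 of 14728 genes passed. Trib3 and Chac1 were 2 of the 10 genes with the 9-week library lowest in all 3 groups, an order that 5.84% of all genes share. Asns was the 1 gene of the 10 with the 11-week library highest in all 3 groups, an order that 7.01% of all genes share. Asns averaged 5.03 CPM in the 5 libraries with Y-linked reads and 1.39 CPM in the 3 with Xist reads. Its log2 difference, male minus female, was 1.82 with genotype in the fit (adjusted p = 0.235, edgeR), where 0.978% of all genes passed. None of the 10 passed for age or sex, and both 7-week libraries had Xist reads, so age and sex are partly confounded. By transcripts, flox/flox replicates 1 and 2 each carry the sex of the other's label. Whether their labelled ages of 11 and 9 weeks are likewise exchanged was not tested. If they were, these orders of Trib3, Chac1 and Asns would not hold in flox/flox, and the averages by age would change.

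**Figure D3:**
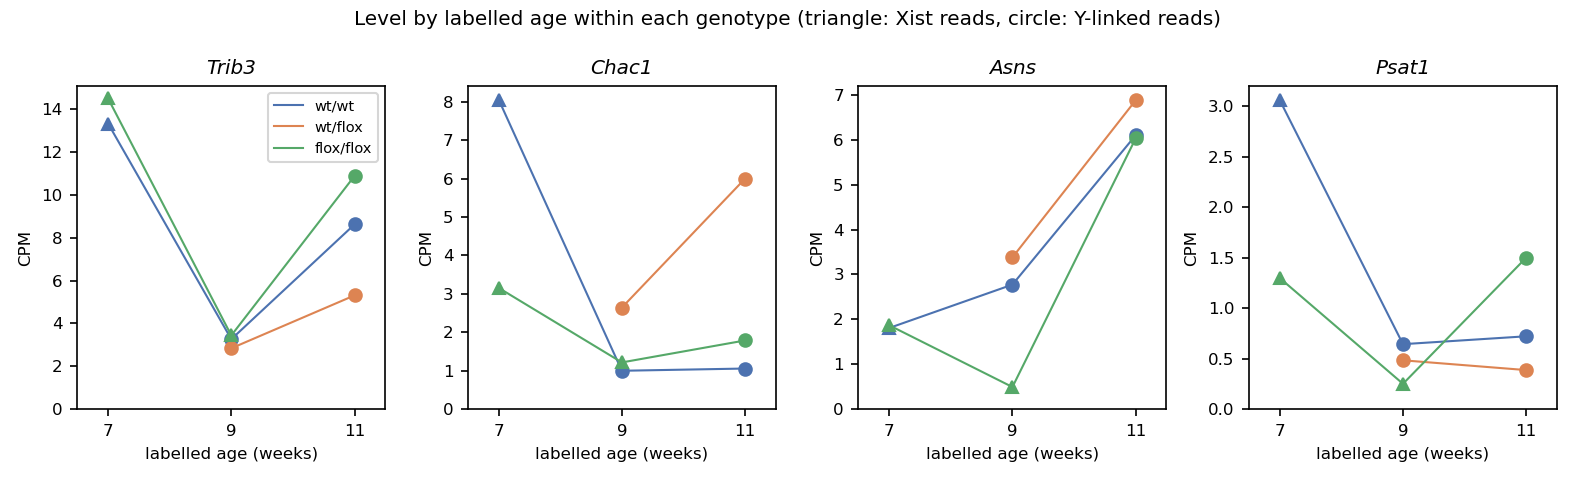
CPM of Trib3, Chac1, Asns and Psat1 (y axis, linear, from 0) by labelled age in weeks (x axis), 1 library a point, coloured and joined by genotype; triangles have Xist reads and circles Y-linked reads. Trib3 and Chac1 are lowest at the labelled 9 weeks in each genotype, and Asns is highest at the labelled 11 weeks in each. In flox/flox these orders rest on the labelled ages of replicates 1 and 2, whose sex labels the transcripts contradict.

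Upstream of ATF4, the list of eIF2 kinases, eIF2 and eIF2B subunits and phosphatases had 3 rises and 6 falls among 23 genes tested in flox/flox against wt/wt, beside 15.1% rising and 14.7% falling over all genes. Eif2ak4, the kinase GCN2 that senses uncharged tRNA, rose from 12.7 ± 0.77 CPM in wt/wt to 20.3 ± 1.95 CPM in flox/flox (SD, n = 3 in each group; log2 fold change 0.67, adjusted p = 0.00510, edgeR). Its activator Gcn1 rose by 0.70 on the log2 scale (adjusted p = 0.00691). Eif2s2, the beta subunit of eIF2, fell from 43.7 ± 3.02 to 22.8 ± 3.57 CPM (-0.94, adjusted p = 0.00336), and the phosphatase subunit Ppp1ca fell from 99.0 ± 11.7 to 60.2 ± 8.06 CPM (-0.72, adjusted p = 0.00762). The falls in this list numbered 3 without wt/wt replicate 2, and scaling by library size alone gave 1 rise and 12 falls. Eif2ak4, Gcn1 and Impact rose and Ppp1ca fell in wt/flox against wt/wt too, where 6.58% of all genes rose and 5.89% fell, and the libraries of both comparisons differ from wt/wt in batch tag. Eif2ak2, the kinase PKR that senses double-stranded RNA and is described here for its place in the pathway after its values were seen, averaged 30.3 CPM in wt/wt, 22.9 CPM in wt/flox and 29.6 CPM in flox/flox. Its log2 fold change in flox/flox against wt/wt was -0.03 ± 0.28 (adjusted p = 0.938).

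Downstream, a wider list of genes known or listed as ATF4 or CHOP targets had 3 rises and 6 falls among 31 tested in flox/flox against wt/wt. Over all genes 15.1% rose and 14.7% fell. Atf5, a transcription factor that ATF4 induces, fell, with every wt/flox and flox/flox library below every wt/wt library. Against wt/wt, 55.1% of all genes tested do not overlap for wt/flox and 45% for flox/flox. It stood at 230, 281 and 344 CPM in wt/wt, 154 and 122 CPM in wt/flox, and 108, 168 and 95.6 CPM in flox/flox. The log2 fold change was -1.20 in flox/flox against wt/wt (adjusted p = 0.0103, edgeR), past the threshold in all 23 alternative settings, and -1.04 in wt/flox against wt/wt (adjusted p = 0.0492), a call lost in 12 of the 23 settings. Eif4ebp1, a brake on translation initiation, fell from 16.2 ± 1.76 to 8.58 ± 1.74 CPM (-0.92, adjusted p = 0.00882), and Lonp1, a mitochondrial protease, fell by 0.53 on the log2 scale. Rhbdd1, a rhomboid protease, rose by 0.61. Over the alternative settings the falls in this list ran from 2 (replicate block with sex from transcripts) to 12 (library size alone), and the rises from 0 to 4. Of the genes that fell, Nars and Wars also stand among the aminoacyl-tRNA synthetases. In wt/flox against wt/wt 2 genes of the list rose and 1 fell, beside 6.58% and 5.89% of all genes.

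The list of serine, one-carbon and proline synthesis had 0 rises and 6 falls among 16 tested in flox/flox against wt/wt, beside 15.1% and 14.7% of all genes. Psph, the last enzyme of serine synthesis, stood at 4.32, 4.89 and 4.53 CPM in wt/wt, 3.94 and 3.29 CPM in wt/flox, and 2.58, 2.92 and 2.64 CPM in flox/flox. All flox/flox libraries lay below all others (log2 fold change against wt/wt -0.76, adjusted p = 0.00965, edgeR). Of all genes tested, 45% have no overlap of flox/flox with wt/wt and 27.3% none with wt/flox. Shmt2, the mitochondrial enzyme that turns serine to glycine, fell from 170 ± 16.1 to 114 ± 9.73 CPM (-0.57), and Srr, serine racemase, from 88.2 ± 9.64 to 56.4 ± 5.62 CPM (-0.64). The count of falls was 3 without wt/wt replicate 2, 3 with the trend on exon length removed and 1 with the replicate number as a block together with the sex from transcripts.

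Among 21 aminoacyl-tRNA synthetases tested, which charge tRNAs and of which several are ATF4 targets, 1 rose (Vars) and 10 fell in flox/flox against wt/wt. Over all genes 15.1% rose and 14.7% fell. Hars stood at 23.1, 27.1 and 23.4 CPM in wt/wt, 16.6 and 15.5 CPM in wt/flox, and 14.2, 11.9 and 9.42 CPM in flox/flox, with no overlap between the 3 groups (log2 fold change against wt/wt -1.05, adjusted p = 0.00384, edgeR). For flox/flox against wt/wt alone, 45% of all genes tested show no overlap. Kars, Rars and Nars fell by 0.70, 0.71 and 0.80 on the log2 scale. The number of falls ran from 2 to 18 over the alternative settings: 4 without wt/wt replicate 2, 6 with the trend on exon length removed, 13 without the 2 libraries of contradicted sex, and 2 with the replicate block and sex from transcripts. Of these, Kars also fell in wt/flox against wt/wt.

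The list of amino acid transporters had 5 rises and 1 fall among 15 tested in flox/flox against wt/wt, beside 15.1% and 14.7% of all genes. Slc7a2, a carrier of cationic amino acids, stood at 706, 531 and 679 CPM in wt/wt, 2940 and 1374 CPM in wt/flox, and 2540, 1334 and 1733 CPM in flox/flox. Every library with a floxed allele lay above every wt/wt library, and the log2 fold change of flox/flox against wt/wt was 1.55 (adjusted p = 0.0127, edgeR). In that comparison 45% of all genes tested have groups that do not overlap. The glutamine and neutral amino acid carriers Slc38a3 and Slc38a4 rose by 0.88 and 0.86 on the log2 scale, and Slc25a39, the mitochondrial glutathione carrier, fell by 0.85. The number of rises was 0 without wt/wt replicate 2, 2 without flox/flox replicate 2 or 3, and 3 without wt/wt replicate 3 or either wt/flox library, and 1 with scaling by library size alone.

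The list of fasting and PPARalpha targets and the FGF21 receptor had 5 rises and 2 falls among 22 tested in flox/flox against wt/wt. Beside this list, and beside each list below, 15.1% of all genes rose and 14.7% fell in the main fit. Klb, the co-receptor that FGF21 needs, rose from 48.5 ± 9.44 to 112 ± 38.3 CPM (log2 fold change 1.20, adjusted p = 0.0159, edgeR), and Cpt1a, the gate of fatty acid oxidation, by 0.88. Pdk4, a brake on glucose oxidation, fell by 1.64 on the log2 scale, and Fabp1, a fatty acid binding protein, by 2.10. The 5 rises became 0 once wt/wt replicate 2 was left out, 2 once wt/wt replicate 1 was, 2 once flox/flox replicate 2 was and 3 once flox/flox replicate 3 was. They became 1 without both libraries of contradicted sex and 1 with scaling by library size alone. For the ATF6 and XBP1 targets of the endoplasmic reticulum, the other arms of the unfolded protein response, 4 rose and 1 fell among 25 tested. Ern1, the sensor IRE1, rose from 64.4 ± 7.82 to 128 ± 16.7 CPM (0.99, adjusted p = 0.00356), while Sec61b, of the translocon, fell from 43.2 ± 4.74 to 14.3 ± 1.44 CPM (-1.60, adjusted p = 0.000767). The rises in this list numbered 1 without wt/wt replicate 1 or 2, 2 without flox/flox replicate 2 and 8 without flox/flox replicate 3. In the last of these fits 1754 of all 14536 genes rose. Among p53 targets 1 rose and 3 fell of 18 tested, and among immediate-early and heat shock genes 1 rose (Dusp1) of 27. Neither rise was called once wt/wt replicate 2 was left out, nor once flox/flox replicate 3 was, among other libraries. Of 25 interferon-stimulated genes tested 0 were called. Without wt/wt replicate 3, 8 of them rose, beside 1894 of all 14561 genes in that fit. None of the genes in these 10 lists was called in flox/flox against wt/flox, where 0 of all 14728 genes tested were called.

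**Figure D4:**
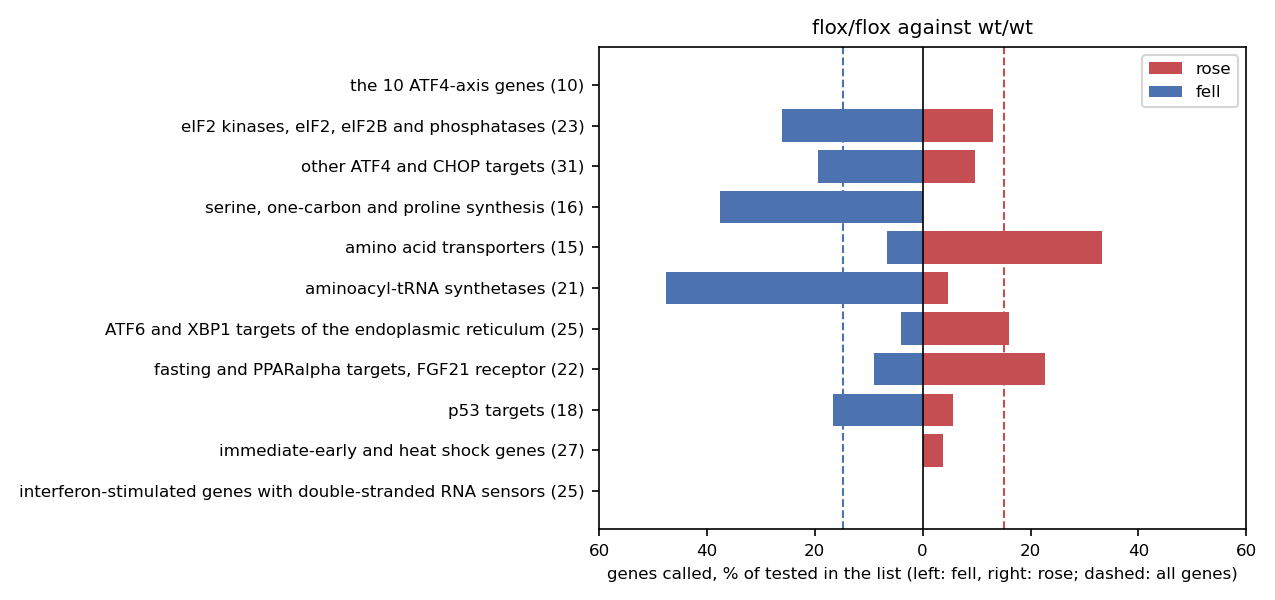
Percent of tested genes called in flox/flox against wt/wt (x axis; falls to the left, rises to the right) for the 10 ATF4-axis genes and 10 related lists (y axis, number tested in brackets); dashed lines are the shares over all genes, 14.7% fell and 15.1% rose. The 10 genes have no bar, falls lead for the aminoacyl-tRNA synthetases (10 of 21) and rises for the amino acid transporters (5 of 15).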

How the data were processed

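Strand-specific libraries of ribosome-depleted total RNA were counted per gene, and the deposited tables hold sense and antisense raw read counts made by the authors, as their column names state. GRCm38 (mm10) and DESeq2 are named in the submitters' processing notes, and the aligner is not given in the sources used. The 5 tally lines without a gene were left out. Counts were analysed with edgeR 4.0.16 in R 4.3.3 (filterByExpr, TMM, quasi-likelihood F test, genotype as the sole term, all 8 libraries, two-sided, adjusted p threshold 0.05). CPM use TMM library sizes; RPKM use GENCODE M21 exon lengths (96.6% of symbols matched). Alternatives used DESeq2 1.42.0, limma 3.58.1, other scalings, filters, sex terms, a replicate block and left-out libraries. The code was tested on simulated counts. Labelled sex was left out of the fit because transcripts contradict it in 2 libraries. The members and lists were chosen with earlier results of these data known. Named list genes are the up to 4 called ones of smallest adjusted p per list, and the nearest patterns the 5 highest correlations at a mean of at least 5 CPM (log2 of CPM plus 1). P-values set a difference against the spread between libraries within groups, which does not cover the batch tag in comparisons with wt/wt. Some genes of the lists are not reported here.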

Additional observations from a re-analysis of the deposited data

How the results depend on the processing

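Of 30 fitted log2 fold changes (10 genes, 3 comparisons), 15 kept their sign under all 23 settings, the 22 planned ones and the fit without the libraries of contradicted sex, which was chosen after seeing the data. The cause of a turned sign was not tested unless stated. With library size alone, which lowers the median of all genes to -0.31 in flox/flox against wt/wt and -0.42 in wt/flox against wt/wt, 1 (Atf4) and 2 (Atf4 and Ddit3) of the 10 genes were called there, and 15.4% and 8.03% of calls were rises against 50.7% and 52.7% with TMM. This scaling called 4841 of 14728 genes in flox/flox against wt/wt, against 4400, and 3498 in wt/flox against wt/wt, against 1837. It turned Trib3 (-0.10) and Sesn2 (-0.23) in flox/flox against wt/wt and Chac1 (-0.000729) in wt/flox against wt/wt. Upper-quartile scaling moved the share of rises in wt/flox against wt/wt to 39%, and the exon-length fit to 69.1%. DESeq2 called 73 genes in flox/flox against wt/flox, where edgeR called 0, and 3295 in wt/flox against wt/wt, with 1 of the 10 (Atf4). Under limma-voom Phgdh (0.039) and Fgf21 (0.080) turned in flox/flox against wt/wt. Labelled sex as a term called 1 of the 10 (Psat1) in flox/flox against wt/wt, beside 3656 of all 14728 genes. It turned Trib3 there (-0.43), and turned Phgdh (-0.63) and Psat1 (-0.67) in flox/flox against wt/flox. Antisense reads added to sense turned Ddit3 (0.012) and Phgdh (0.66) in flox/flox against wt/wt, and Phgdh in flox/flox against wt/flox (-0.060) and wt/flox against wt/wt (0.72). Removing a trend with exon length left 2686 genes in flox/flox against wt/wt and 139 in wt/flox against wt/wt, with Ddit3 at 0.21 in the first. Without the libraries of contradicted sex, where flox/flox keeps 1 library assumed to vary like the others, 2915 genes were called in flox/flox against wt/wt, and Ddit3 (0.13), Sesn2 (-0.15) and Phgdh (0.22) turned.

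The replicate number equals the age. Deviations from the group means correlated at -0.013 to 0.409 between same-numbered libraries, not all above 0.1. Between differently numbered libraries they correlated at -0.475 to 0.343. The libraries therefore share a number and are not taken as paired. The replicate block called 4794 and 1439 genes against wt/wt for flox/flox and wt/flox, none of the 10, with Phgdh at 0.022 in the first. The replicate block with sex by transcripts called 1786 and 0, with Phgdh (0.48), Psat1 (0.078) and Asns (0.027) turned in flox/flox against wt/wt and Ppp1r15a (-0.093) in flox/flox against wt/flox.

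Leaving out each library gave 2195 (without wt/wt 2) to 4722 genes in flox/flox against wt/wt, with 2807 without wt/wt 1, and 0 to 2525 in wt/flox against wt/wt (0 without either wt/flox library, 38, 393 and 1001 without wt/wt 2, 1 and 3). It gave 0 to 1 of the 10 in flox/flox against wt/wt, the 1 being Sesn2 without wt/wt 3, where 3887 of 14561 genes were called. In that comparison the values ran from -0.24 to 0.20 for Ddit3, -0.23 to 0.70 for Trib3, -0.32 to 0.061 for Ppp1r15a, -0.10 to 0.58 for Sesn2, -0.64 to 0.73 for Phgdh, -0.93 to 0.57 for Psat1, -1.59 to 0.28 for Asns, -1.17 to 1.00 for Chac1 and -1.30 to 1.25 for Fgf21. For wt/flox against wt/wt they ran from -1.61 to 0.064 for Phgdh, -0.068 to 1.16 for Asns and -0.34 to 2.07 for Chac1. Phgdh had only 5 to 39 sense reads a library, and no direction can be given for it.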
